A study of Mus musculus with 10 samples.

Results

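Sox17, Foxa2, Gata4 and Gata6 encode transcription factors that direct cells toward endoderm, the germ layer of gut, liver and lung, and toward the extraembryonic endoderm of the yolk sac. Their histone marks were followed in mouse embryonic stem (ES) cells as intervals enriched for H3K4me3 or H3K27me3, called islands. Members were the islands of the 4 ChIP-seq lists that overlapped by 1 bp or more a window around each gene in build mm9. The windows were chromosome 1, 4470000 to 4500000 (Sox17), chromosome 2, 147855000 to 147890000 (Foxa2), chromosome 14, 63805000 to 63905000 (Gata4) and chromosome 18, 11035000 to 11100000 (Gata6). They held 36 of the 84243 islands of the series: 10 of KO H3K4me3, 9 of WT H3K4me3, 10 of KO H3K27me3 and 7 of WT H3K27me3.

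The ES cells, of strain 129/C57BL/6, were cultured with LIF on feeders of embryonic fibroblasts (MEF). KO cells, the BAF250a knockout, were given 1 µM 4-hydroxytamoxifen for 36 hours from 4 hours after passage. WT cells were given ethanol over the same hours, so the effects of the deletion and of the drug cannot be told apart. Which allele was deleted, and by what recombinase, the labels do not say. BAF250a, the product of Arid1a, is a DNA-binding subunit of the BAF (SWI/SNF) remodelling complex, and the study asked how its loss alters nucleosomes and histone marks before differentiation. Each genotype and mark had 1 library and no replicates. The differences below therefore have no replicate check and no p-value, they compare these libraries and not the conditions, and their 95% intervals cover read counting error only. Reads came from all cells on the plate, so a change in every cell and a change in some cells cannot be told apart, and signal of feeder cells was not separated.

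H3K4me3 is laid down by SET1 and MLL complexes, mostly at CpG-rich promoters, and goes with a promoter that is active or able to become so. H3K27me3 is laid down by Polycomb repressive complex 2 and goes with silencing. In ES cells many developmental regulators carry both marks, a state called bivalent, in which the gene is silent but can be switched on when the cell differentiates. Here a H3K4me3 island was called bivalent when it shared 1 bp or more with H3K27me3 called in that genotype.

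Of the 4 genes, only Foxa2 promoter windows of the RefSeq sequence table were used, for 3 start sites. They held 12, 23 and 13 CpG dinucleotides in 300 bases, against a median of 7 over 32851 mouse promoter windows, of which 60.4%, 78.5% and 62.1% held fewer. CG reads the same on both strands. The 250 bases before the outermost Foxa2 start are shown, with capitals at the 6 CpGs. They come from RefSeq, build GRCm38.p6, minus strand, chr2:148046970-148047219, and since the islands are in mm9 their place relative to the islands was not determined.
Foxa2 promoter: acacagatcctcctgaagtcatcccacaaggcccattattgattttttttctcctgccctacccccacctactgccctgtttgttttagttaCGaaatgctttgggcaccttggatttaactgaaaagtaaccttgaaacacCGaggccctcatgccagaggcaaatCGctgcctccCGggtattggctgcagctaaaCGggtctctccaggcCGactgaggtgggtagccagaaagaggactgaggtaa

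All 4 loci were bivalent in both genotypes, and the stretch covered by both marks, as called, was shorter in KO at each. How often this stretch was shorter in KO over all bivalent regions was not measured. Among shared regions with both marks in both genotypes, 37.4% of H3K4me3 and 54.1% of H3K27me3 regions had less called length in KO. Of the H3K4me3 islands, 9 of 10 in KO and 8 of 9 in WT overlapped H3K27me3, against 6.78% of all KO and 10.8% of all WT H3K4me3 islands. Of the H3K27me3 islands, 9 of 10 in KO and 6 of 7 in WT overlapped H3K4me3, against 41.9% and 37.4% of the whole lists. Both marks covered 27.8 kb in KO and 44 kb in WT over the 4 loci, and 26.6 kb of this was in the same place in both genotypes.

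By locus, the length with both marks was 4.2 kb in KO and 8.4 kb in WT at Sox17, and 5.4 kb in KO and 10.6 kb in WT at Foxa2. It was 8.8 kb in KO and 14 kb in WT at Gata4, and 9.4 kb in KO and 11 kb in WT at Gata6. The length in KO lay almost wholly inside that of WT: the part common to both genotypes was 4.2 kb at Sox17, 5.2 kb at Foxa2, 8.2 kb at Gata4 and 9 kb at Gata6. Where a fold over input of 2 or more was required of every island, Foxa2 was no longer bivalent in WT, because its WT H3K4me3 islands were 1.77 and 1.38-fold over input, and the other 7 combinations of locus and genotype stayed bivalent. The length with both marks at Foxa2 was then 5.4 kb in KO and 0 in WT, the opposite direction, and at Gata6 it was 4.2 kb in KO and 4.4 kb in WT. Sox17, with 2 kb in KO and 8.4 kb in WT, and Gata4, with 6.8 kb in KO and 11 kb in WT, were still shorter in KO.

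**Figure D1:**
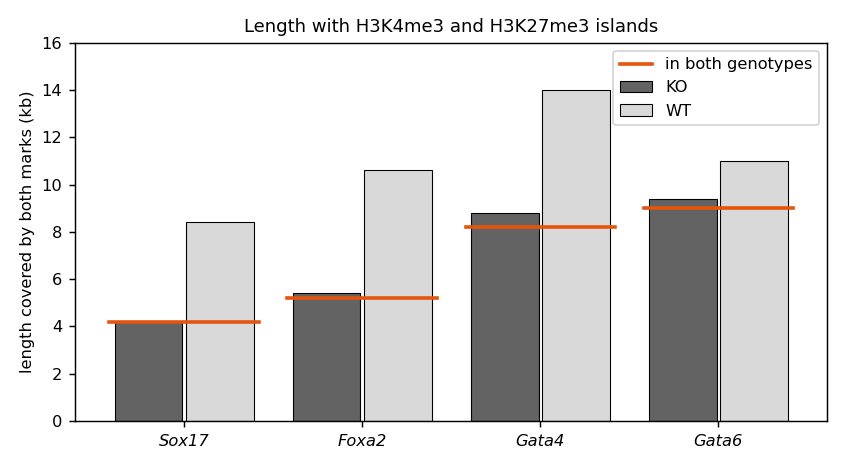
Length in kb covered by both a H3K4me3 and a H3K27me3 island at each gene, in KO (dark bars) and WT (light bars), 1 library per mark and genotype; the line gives the length common to both genotypes. The KO bar is the lower at all 4 genes, with the widest differences at Gata4 (8.8 kb in KO, 14 kb in WT) and Foxa2 (5.4 kb in KO, 10.6 kb in WT) and the smallest at Gata6 (9.4 kb in KO, 11 kb in WT).

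Every island at the 4 genes had a partner in the other genotype, so none was found in KO or WT alone. In the whole lists 59.6% of KO and 94.7% of WT H3K4me3 islands, and 58.5% of KO and 49.6% of WT H3K27me3 islands, had one. These shares include many islands with few reads, whereas 26 of the 36 islands here were above the median of their list in reads.

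Sox17 is an HMG-box factor needed for definitive gut endoderm and used in primitive endoderm. It had the highest H3K27me3 fold over input of the 4 loci when the islands of each locus were summed. In KO this mark formed 2 islands, at 4476801 to 4481800 with 154 reads and 3.66-fold over input, and at 4483801 to 4495600 with 349 reads and 3.50-fold. In WT it formed 1 island of 21.8 kb, at 4477001 to 4498800, with 1065 reads and 4.35-fold over input. The KO islands left uncalled a stretch of 2000 bp within the WT domain and ended 3.2 kb short of it on the high-coordinate side. Over all shared H3K27me3 regions, KO held 0.732 times the reads of WT, 25.7 per kb in KO and 36.2 in WT. Input per kb there was 1.33 times that of WT. Raw reads and called extents of this mark, here and at the other genes, were not corrected for this. Its part in the breaks and ends of KO islands was not tested.

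H3K4me3 at Sox17 was likewise 2 islands in KO and 1 in WT. The KO islands lay at 4480801 to 4484800, with 268 reads and 3.06-fold over input, and at 4485601 to 4487800, with 80 reads and 1.49-fold. The WT island lay at 4480201 to 4488600, with 544 reads and 3.12-fold, and was wholly inside H3K27me3. In KO the first H3K4me3 island spanned the whole 2000 bp gap in H3K27me3, so that 50% of its own length carried H3K27me3.

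Foxa2, a forkhead pioneer factor of endoderm, node and notochord, lay in the widest H3K27me3 island of the 4 loci. It ran from 147848201 to 147886600 in KO (38.4 kb, 924 reads, 2.21-fold over input) and from 147846201 to 147885400 in WT (39.2 kb, 1514 reads, 2.07-fold). These were wider than or as wide as 99.7% of the H3K27me3 islands in each list. The domain was nearly the same in extent and in fold, and unbroken in both libraries.

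Within it, the main H3K4me3 island of Foxa2 was 4.4 kb in KO, at 147869201 to 147873600, and 9.4 kb in WT, at 147864001 to 147873400. The high-coordinate ends lay 200 bp apart, and the low-coordinate end in WT reached 5.2 kb farther. The island held 219 reads in KO and 520 in WT, or 49.8 reads per kb in KO and 55.3 in WT. A smaller island beside it had 46 reads over 1 kb in KO and 86 over 1.2 kb in WT. Its ChIP reads per input read were higher in KO: the fold over input of the main island was 3.25 in KO and 1.77 in WT, with 50 input reads in KO and 165 in WT.

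Gata4, a zinc-finger factor of extraembryonic endoderm and heart, had 5 H3K27me3 islands in KO where WT had 2. The WT islands spanned 63849001 to 63874200 (1082 reads, 2.11-fold) and 63875001 to 63890200 (580 reads, 2.26-fold). Over the first of these, 4 KO islands held 598 reads at 2.47-fold in sum, and over the second, 1 KO island held 337 reads at 2.22-fold. The outer ends of the domain differed by 0.4 kb or less, so the difference lay in its gaps.

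The main H3K4me3 island of Gata4 was 8.6 kb in KO, at 63858801 to 63867400, with 429 reads and 2.53-fold over input, and 11 kb in WT, at 63856201 to 63867200, with 704 reads and 2.66-fold. As at Foxa2, the high-coordinate ends nearly met and the WT island reached farther, by 2.6 kb, at the low-coordinate end. Smaller H3K4me3 islands lay near 63874001 (113 reads and 2.90-fold in KO, 105 reads and 1.55-fold in WT) and near 63887201 (61 reads and 1.56-fold in KO, 62 reads and 1.24-fold in WT). The last of these passed the FDR of 0.05 narrowly in WT, at 0.0479, and at 0.000469 in KO.

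A further H3K4me3 island of the Gata4 window overlapped no H3K27me3 in either genotype. It lay 44.6 kb from the nearest bivalent island in KO and 41.4 kb in WT, at 63810601 to 63814200 in KO (441 reads, 7.12-fold) and 63810801 to 63814800 in WT (423 reads, 4.32-fold). In fold it was the strongest H3K4me3 island of the 4 windows in both libraries. The nearest protein-coding gene on one side of Gata4 in the GRCm38 gene table is Neil2, a DNA repair glycosylase, but the island was not assigned to a gene for want of an mm9 annotation.

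Gata6, the zinc-finger factor that specifies primitive endoderm in the blastocyst, had its H3K27me3 in 2 islands in KO and 3 in WT. The first, at 11045001 to 11053000 in KO and 11045201 to 11054200 in WT, was weak, with 188 reads and 1.65-fold in KO and 358 reads and 1.40-fold in WT. The second, at 11055201 to 11066400 in KO, had 293 reads and 3.44-fold. It overlapped WT islands of 393 reads and 4.26-fold and of 62 reads and 6.16-fold, and the short WT island carried no H3K4me3. Gata6 was the 1 locus where H3K27me3 covered more length in KO, 19.2 kb against 18 kb in WT.

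Gata6 kept nearly its full H3K4me3 length, 11.6 kb in KO and 11.8 kb in WT. The main island, at 11047801 to 11056800 in KO and 11047601 to 11057200 in WT, held 499 reads at 2.73-fold in KO and 699 reads at 2.41-fold in WT. A smaller neighbour held 92 reads at 3.26-fold in KO and 69 reads at 2.28-fold in WT. It was the only H3K4me3 island among the 4 genes that was longer in KO, 2.6 kb against 2.2 kb in WT. An antisense gene, Gata6os, adjoins Gata6 in the gene table, and the islands do not tell their promoters apart.

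Short gaps in H3K27me3 at these genes often overlapped H3K4me3 islands, as did many such gaps in the whole lists. Gaps of 3 kb or less between neighbouring H3K27me3 islands, a measure chosen after the values were seen, numbered 6 in KO and 4 in WT across the windows. Of these, 5 in KO and 2 in WT overlapped a H3K4me3 island, against 42.9% of 1663 such gaps in the whole KO list and 32.8% of 1982 in the WT list. Among gaps beside a H3K27me3 island that carries H3K4me3, the shares were 64.3% in KO and 53.1% in WT. With so few gaps, the counts at these genes cannot be told apart from those shares. At Gata6 the gap under the main H3K4me3 island was 2200 bp in KO and 800 bp in WT. At Gata4 the gaps of 1000 and 1200 bp in KO lay wholly under the main H3K4me3 island, which in WT was covered from end to end by H3K27me3.

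Called length was lower in KO in 6 of the 9 H3K4me3 regions, equal in 2 and higher in 1. A region is the union of overlapping KO and WT islands. In the whole series 19.4% of 23315 shared H3K4me3 regions had less called length in KO, and 37.4% of the 1806 that carried H3K27me3 in both genotypes. The ratio of KO to WT length was 0.468 at the main Foxa2 region, where 0.446% of shared regions had a lower one, and 0.738 at Sox17, where 4.25% did. For H3K27me3, 5 of 6 regions were shorter in KO, against 42.5% of all shared regions and 54.1% of those with both marks in both genotypes.

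Reads in the islands were compared after dividing by the reads of each library in all shared regions ("scaled reads"), since total depth is not given. By this measure H3K4me3 was lower in KO at all 4 genes. It was lower in KO in 45.7% of all shared H3K4me3 regions and 63.6% of those with both marks in both genotypes. The KO over WT ratio was 0.333 at Foxa2 (0.287 to 0.385), 0.487 at Sox17 (0.424 to 0.558), 0.585 at Gata6 (0.525 to 0.652) and 0.614 at Gata4 (0.565 to 0.666). Foxa2 was the lowest and its interval met no other, whereas that of Gata6 overlapped those of Sox17 and Gata4. These sums also hold the change in called length. Reads per kb were compared after dividing by the reads per kb of each library in all shared regions, 102.5 in KO and 95.5 in WT. This divisor is not that of the sums, so the step from one to the other is not called length at these genes alone. The per kb ratio was 0.799 at Foxa2 (0.689 to 0.925) and 0.807 at Sox17 (0.703 to 0.925). It was 0.729 at Gata6 (0.653 to 0.812) and 0.882 at Gata4 (0.813 to 0.958). Per kb all 4 were still lower in KO, and Foxa2 was no longer the lowest. Without the Gata4 island that carries no H3K27me3, left out after the values were seen, the Gata4 ratio was 0.527 (0.474 to 0.585).

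Region by region, 5 of 9 had scaled H3K4me3 reads at least 1.5-fold lower in KO, against 5.93% of all shared regions and 17.4% of those with both marks in both genotypes. Scaled reads at least 1.5-fold higher in KO were found in 0 of 9, against 16.1% of all shared regions and 6.7% of those with both marks. The 5 lower ones were the Sox17 region, both Foxa2 regions and the main regions of Gata4 and Gata6. Among all shared regions, 0.232% had a lower ratio than the main Foxa2 region, 1.17% than the main Gata4 region, 1.51% than Sox17 and 2.26% than the main Gata6 region. The small Gata6 region was level between genotypes (log2 0.02, −0.45 to 0.49).

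Fold over input gave another picture for H3K4me3. Summed over the islands of a locus it was 3.03 in KO and 1.70 in WT at Foxa2, 3.37 in KO and 2.69 in WT at Gata4, 2.80 in KO and 2.40 in WT at Gata6, and 2.46 in KO and 3.12 in WT at Sox17. The KO over WT ratio of folds was 1.78 at Foxa2 (1.30 to 2.44) and 1.25 at Gata4 (1.03 to 1.52), and its interval held 1 at Gata6 (0.918 to 1.48) and Sox17 (0.581 to 1.07). Without the island that carries no H3K27me3, the Gata4 ratio was 1.07 (0.856 to 1.34). So the folds at Foxa2 and Gata4 were higher in KO where scaled reads were lower, and without that island the Gata4 interval held 1. The bivalent Gata4 region at 63873801 to 63875800 was also higher in KO by fold (log2 0.90, 0.10 to 1.69). In the main Gata4 region (−0.07) and the one at 63887001 to 63889200 (0.33) the interval held 0.

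Across the series the fold was higher in KO at most H3K4me3 regions, with a median log2 ratio of 0.66, and these genes must be read against that. Relative to this median, the log2 fold ratio was −1.005 at Sox17 (−1.45 to −0.56), −0.44 at Gata6 (−0.79 to −0.10) and −0.34 at Gata4 (−0.62 to −0.059), and 0.17 at Foxa2 with an interval that held 0 (−0.29 to 0.62). Set against the series, then, 3 of the 4 genes were lower in KO by fold as by scaled reads, and Foxa2 was not. At least 1.5-fold higher folds in KO were found in 4 of the 9 regions, against 57% of all shared regions and 52.8% of those with both marks in both genotypes. At least 1.5-fold lower folds were found in 0 of 9, against 2.18% and 2.77%. In log2 terms the Sox17 ratio of −0.34 (−0.78 to 0.10) was higher than that of 3.67% of shared regions, and the main Gata4 region, at −0.07 (−0.45 to 0.31), than that of 7.10%. The main Foxa2 region, at 0.88 (0.37 to 1.39), was above 68.3% of them.

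**Figure D2:**
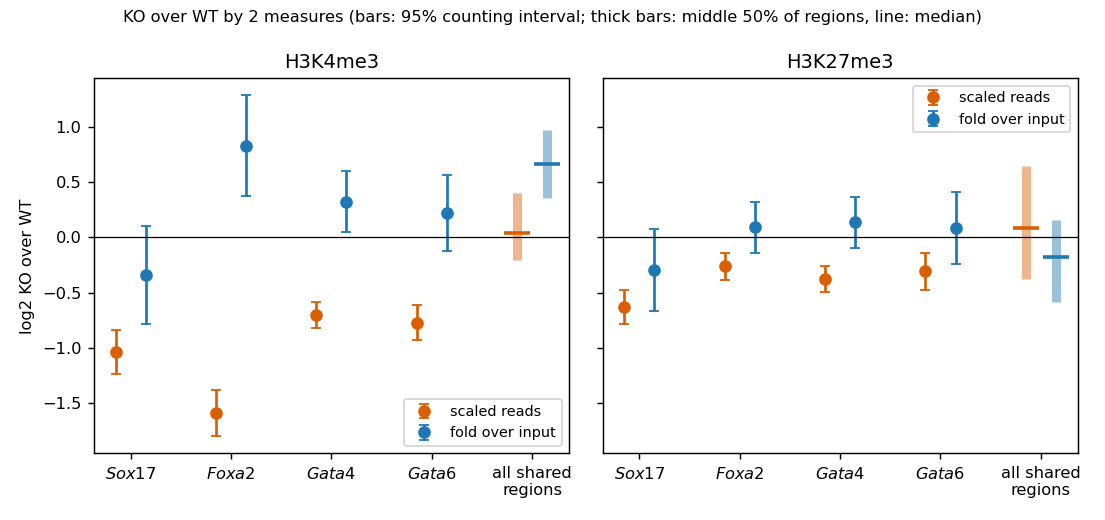
Log2 KO over WT per gene for H3K4me3 (left) and H3K27me3 (right), by scaled reads (orange) and fold over input (blue), 1 library per genotype and mark, with 95% counting intervals; at the right of each panel, the middle 50% and median of all shared regions. Scaled H3K4me3 reads sit below 0 at all 4 genes, from −1.59 at Foxa2 to −0.70 at Gata4, while the H3K4me3 folds sit above 0 except at Sox17, and below the median of all shared regions except at Foxa2.

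Input reads, by which the folds are divided, differed between the libraries at Foxa2 and Sox17. Per kb of H3K4me3 islands, input was 12.0 reads in KO and 18.9 in WT at Foxa2, and 16.9 in KO and 11.7 in WT at Sox17. It was 14.4 in both at Gata4, and 13.5 in KO and 15.3 in WT at Gata6. The KO over WT ratio was thus 0.638 at Foxa2 and 1.45 at Sox17, against 0.933 over all shared H3K4me3 regions. The part of input in the fold differences was not tested.

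Since the same input served both marks of a genotype, input inside a H3K4me3 island could be set against input in the rest of the H3K27me3 island around it. At Foxa2 the density inside was 1.16 times that outside in KO (0.877 to 1.52; 65 reads inside, 342 outside) and 2.30 times in WT (1.89 to 2.78; 200 reads inside, 235 outside). The median over all such domains was 1.51 in KO (294 domains) and 1.79 in WT (431 domains). The Foxa2 value was above 21.4% of KO and 74.9% of WT domains. At a Gata4 domain in KO it was 1.41 times (0.908 to 2.14). At Sox17 it was 3.26 times in WT (2.28 to 4.70), above 93.0% of WT domains, and the KO islands could not be compared in this way because H3K4me3 runs past them.

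Scaled H3K27me3 reads were also lower in KO at all 4 genes, by less than those of H3K4me3. They were lower in KO in 45.7% of all shared H3K27me3 regions and 62.8% of those with both marks in both genotypes. In the regions with both marks the median log2 ratio was −0.19, with quartiles of −0.56 and 0.26. The log2 values at Foxa2 (−0.26), Gata6 (−0.31) and Gata4 (−0.38) lay between these quartiles, and Sox17 (−0.63) lay below them. The KO over WT ratio was 0.645 at Sox17 (0.579 to 0.718), 0.769 at Gata4 (0.709 to 0.833), 0.808 at Gata6 (0.721 to 0.906) and 0.834 at Foxa2 (0.768 to 0.906). Sox17 was the lowest and its interval overlapped that of Gata4 alone, and those of the other 3 overlapped one another. These sums also hold the change in called length. Reads per kb were again divided by those of each library in all shared regions of the mark, 25.7 in KO and 36.2 in WT. The per kb ratio was 0.863 at Sox17 (0.774 to 0.960) and 0.894 at Gata4 (0.824 to 0.969). It was 0.781 at Gata6 (0.696 to 0.875) and 0.877 at Foxa2 (0.807 to 0.952). By this per kb measure, each interval overlapped that of H3K4me3 at the same gene. Since the divisors were set for each mark, the overlap holds for this scaling only, and whether the marks differ beyond called length was not tested. At least 1.5-fold lower scaled reads were found in 1 of 6 regions, at Sox17, against 16.2% of all shared H3K27me3 regions and 23.3% of those with both marks in both genotypes. Higher ones were found in 0 of 6, against 27.4% and 14.1%.

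By fold over input, no H3K27me3 difference between the libraries was detectable at this depth. The locus sums were 3.55 in KO and 4.35 in WT at Sox17, 2.21 in KO and 2.07 in WT at Foxa2, 2.37 in KO and 2.16 in WT at Gata4, and 2.41 in KO and 2.28 in WT at Gata6. The KO over WT ratios were 0.816 at Sox17 (0.632 to 1.05), 1.07 at Foxa2 (0.910 to 1.25), 1.10 at Gata4 (0.938 to 1.29) and 1.06 at Gata6 (0.847 to 1.33), so each interval held 1. Against the median of all shared H3K27me3 regions, a log2 fold ratio of −0.18, the value was higher by 0.27 at Foxa2 (0.042 to 0.50) and by 0.31 at Gata4 (0.086 to 0.54), and the intervals at Gata6 and Sox17 held 0. At least 1.5-fold differences of fold were found in 0 of 6 regions in either direction, against 25% of shared regions lower and 7.87% higher in KO, or 16% and 9.07% of those with both marks.

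**Figure D3:**
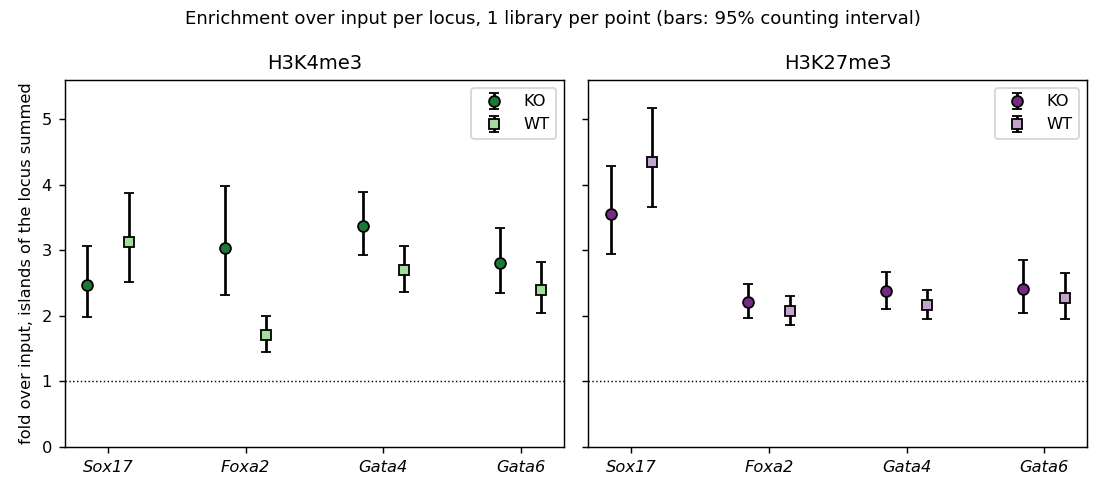
Fold over input summed over the islands of each gene, for H3K4me3 (left) and H3K27me3 (right), in KO (circles) and WT (squares), 1 library per point with 95% counting intervals; the dotted line marks no enrichment. Intervals of KO and WT are apart for H3K4me3 at Foxa2 (3.03 in KO, 1.70 in WT) and overlap elsewhere, and Sox17 has the highest H3K27me3 in both libraries (3.55 in KO, 4.35 in WT).

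Summed over the islands of a locus, Sox17 led in H3K27me3 in both genotypes. Its fold interval was above those of the other 3 genes in KO (2.94 to 4.28) and in WT (3.66 to 5.17). Those of the other 3 overlapped one another. The Gata6 region at 11055001 to 11066400 was close to Sox17, with 3.44-fold in KO and 4.45-fold in WT. The highest single H3K27me3 islands lay elsewhere, at Gata4 in KO (3.83-fold) and Gata6 in WT (6.16-fold). The order of the 4 genes in H3K4me3 fold was not the same in the libraries. In KO it was Gata4, Foxa2, Gata6 and Sox17, with neighbours that overlapped, and in WT it was Sox17, Gata4, Gata6 and Foxa2, where only Foxa2 (1.45 to 2.00) was below the intervals of all others. Without the Gata4 island that carries no H3K27me3, Gata4 had 2.44-fold in KO, last of the 4, and 2.28-fold in WT, below Gata6. H3K4me3 at Foxa2 was thus last of the 4 by fold in WT, whereas in KO its interval overlapped the other 3.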

How the data were processed

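The 4 ChIP lists of a series of 10 samples were used; the nuclease and input samples were not analysed here. Per the submitters' processing notes, Bowtie (no version) and SICER 1.1 on mm9 were used; the deposited lists were made at an FDR of 0.05 with 200 bp windows, joined across gaps of 200 bp (H3K4me3) or 600 bp (H3K27me3). Treatment of duplicate reads is not given in the sources used here. The title of the KO H3K27me3 sample reads H2K27me3; its antibody field reads H3K27me3.

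Each island has deposited ChIP and control read counts, not scaled. The deposited fold, a ratio, equals ChIP over control reads divided by 1 constant per list: 1.35 for KO and 1.78 for WT H3K4me3, and 1.03 for KO and 1.68 for WT H3K27me3. The deposited p-values and adjusted p-values were used only as filters. Intervals identical in both marks had equal control reads (4 of 4 in KO, 11 of 11 in WT). The islands held 13512350 reads in KO and 9565481 in WT for H3K4me3, and 839422 in KO and 1140878 in WT for H3K27me3; library totals are unknown.

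Positions are 1-based, with 1 added to starts and ends. Shared regions are merged KO and WT islands present in both lists, with 20 or more reads in each for ranks. Ratio intervals are exact conditional binomial for reads and normal on the log scale for folds. All islands of the 4 genes were accounted for. The members and lists were chosen with earlier results of these data known; the 1.5-fold limit, called lengths, gaps, input inside domains and folds less the median of shared regions were chosen after seeing the data. Alternatives were another scaling, reads per kb, an FDR of 1e-05, a fold of 2, 50% overlap and islands wholly inside the windows. Other endoderm genes, exons and promoters in mm9 were not analysed here for want of an annotation. Python 3.11.15, numpy 2.4.6, pandas 2.3.3, scipy 1.17.1 and matplotlib 3.10.9 were used; overlap counts differed by 0 islands from bedtools 2.31.1, and the ratio was tested on simulated data.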

Additional observations from a re-analysis of the deposited data

How the results depend on the processing

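Of 67 alternative values, 39 stayed inside the interval of the reported value (for counts and lengths, within a factor of 1.5), 18 lay outside it and 10 had the opposite sign; the cause was not tested. By fold over input, which is higher in KO across most H3K4me3 regions, the log2 KO over WT value was 0.83 at Foxa2, 0.32 at Gata4, 0.22 at Gata6 (interval −0.12 to 0.57) and −0.34 at Sox17. Less the median of shared regions, an alternative chosen after seeing the data, it was 0.17 at Foxa2, −0.34 at Gata4, −0.44 at Gata6 and −1.005 at Sox17. For H3K27me3 the fold gave 0.091 at Foxa2, 0.14 at Gata4, 0.085 at Gata6 and −0.29 at Sox17. Each interval held 0, so the fold resolved no difference between the libraries in either direction. Less the median of shared regions these were 0.27 at Foxa2 (0.042 to 0.50), 0.31 at Gata4 (0.086 to 0.54), 0.26 at Gata6 (−0.061 to 0.59) and −0.11 at Sox17 (−0.48 to 0.25). By reads per kb of called length, relative to all shared regions, H3K4me3 was −0.31 at Sox17, −0.32 at Foxa2, −0.18 at Gata4 and −0.46 at Gata6. By the same measure H3K27me3 was −0.21 at Sox17 and −0.16 at Gata4. Without the island that carries no H3K27me3, chosen after seeing the data, Gata4 H3K4me3 was −0.93. A fold of 2 left 5 of 9 WT H3K4me3 islands; added after seeing the data, it gave lengths with both marks of 2 kb at Sox17 in KO, 4.2 kb in KO and 4.4 kb in WT at Gata6, and 0 at Foxa2 in WT. An FDR of 1e-05 also left 2 kb at Sox17 in KO. These settings remove islands. No paired analysis was possible because each genotype and mark has 1 library; the shared replicate numbers belong to nuclease samples not used here. Reads outside islands are not counted, and islands with few input reads carry wide intervals.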
